A study of Rattus norvegicus with 24 samples.

Results

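The paraventricular nucleus of the hypothalamus (PVN) was compared between rats that had electroacupuncture around a partial hepatectomy (HT + EA, here EA) and rats that had the hepatectomy alone (HT). The 3 EA and 3 HT libraries of this region were chosen by their sample titles and make up 6 of the 24 mRNA libraries of the series, which hold 8 groups of 3. Both groups were male Sprague-Dawley rats in which a part of the left liver lobe had been removed under isoflurane, and both had been held awake in a restraint device. In the EA group, current was passed through needles at the Zusanli (ST36) and Sanyinjiao (SP6) points the day before the operation and again directly after it, whereas the HT group was only restrained for as long, so that needling and current came together. Beside them stand the sham group (SEA), operated and needled in the same way with no stimulator connected, and the normal control group (NC), restrained but neither operated nor needled. The tissue was taken a day after the last session. The paper states that its brain samples came from different animals of the same batch. Whether each library came from 1 rat was not given, so p-values measure the spread between these libraries.

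The PVN holds the neurons that start the hormonal stress response. Its parvocellular neurons release corticotropin-releasing hormone (CRH) and vasopressin to the pituitary, which drives the adrenal cortex through adrenocorticotropic hormone. Other neurons of the nucleus make oxytocin, thyrotropin-releasing hormone and somatostatin, and excitatory input reaches all of them through glutamate receptors held in place by postsynaptic scaffold proteins. Electroacupuncture is the passing of weak pulsed current through acupuncture needles, and the comparison asks which PVN transcripts differ a day after it in animals with the same surgical injury.

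Total counts ran from 14796811 to 18226679 over the 6 libraries, a ratio of 1.23, and 35032 genes were listed. Levels are given as CPM, the counts of a gene scaled to a library size that is normalised over the 12 PVN libraries, with the SD over n = 3 libraries. Before that normalisation 1 count was worth 0.0549 to 0.0676 CPM. The dissection was checked against transcription factors that mark PVN neurons. Otp stood at 24.7 to 29.1 CPM, Sim1 at 12.1 to 17.5 CPM and Pou3f2 at 20 to 27.5 CPM over the 6 libraries. Avp, Oxt, Trh and Crh were present in each of them as well. Pituitary markers were mixed. Prl and Fshb had 0 counts in each library, which allows at most 0.165 to 0.203 CPM per library at 3 counts, and Gh1 and Pou1f1 had at most 2 and 1. Lhb had 65 to 103 counts, Tshb 3 to 25, Cga 0 to 119 and Pomc, which hypothalamic neurons also express, 561 to 960. The Cga means were 2.69 CPM in EA, mostly from the 1 library with 119 counts, and 0.189 in HT. Such floors and intervals cover counting error only. In bulk tissue, fewer cells of a type and less RNA per cell cannot be told apart. HT replicate 3 was the lowest of the 6 libraries for Oxt, Avp, Trh, Crh and Sst, and results that rest on it are given with and without it.

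In the edgeR quasi-likelihood test, 16 of 16641 genes passed the adjusted threshold of 0.05, which is 0.0961% of the genes tested, and all 16 were lower in EA. They were 6 loci under a gene symbol (Ppia, Tpi1, Mif, Epb41l1, Rasl10b and Cd99l2), 7 loci annotated as copies of other genes, and 3 loci without a name. At an unadjusted p under 0.05 there were 350 higher genes (2.1% of those tested) and 594 lower genes (3.57%). The CPM ranges of the groups did not overlap for 1000 genes higher in EA (6.01%) and 905 genes lower in EA (5.44%). The median log2 fold change over all genes tested was 0.000567. The count of 16 rested on single libraries: it was 1 without EA replicate 1 (0 of the 16), 5 without EA replicate 2 (1 of the 16), 0 without EA replicate 3, 1 without HT replicate 1 (1 of the 16), 0 without HT replicate 2 and 28 without HT replicate 3 (13 of the 16). In a fit of all 12 PVN libraries 0 genes passed. DESeq2 called 100 genes at the same adjusted threshold, 11 of them higher and 89 lower, and the 16 were among them.

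Of the loci under a symbol, that of Ppia (ENSRNOG00000055068) had the highest CPM. The symbol is that of cyclophilin A, an abundant protein-folding enzyme. The locus stood at 44.8, 39.3 and 36.3 CPM in the EA libraries and at 72.8, 67.6 and 62.7 CPM in the HT libraries. No EA library reached the lowest HT library, and the HT mean was 1.69 times the EA mean (log2 fold change -0.76, SE 0.09, edgeR adjusted p = 0.0320). The locus that carries this symbol is a single exon block of 768 bases on chromosome 14 (22706901 to 22707668, plus strand). Coordinates are those of the deposited table, which names no genome build.

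Tpi1, the glycolytic enzyme that interconverts the triose phosphates, had 32.8, 32.7 and 30.8 CPM in EA and 53.4, 51.8 and 47.7 CPM in HT. The groups were apart by more than their spread, with an HT mean 1.59 times that of EA (log2 fold change -0.67, SE 0.07, edgeR adjusted p = 0.0277). Mif, a cytokine known for opposing the anti-inflammatory action of glucocorticoids, had 3.23, 4.53 and 3.24 CPM in EA and 10.3, 11.2 and 10.3 CPM in HT. The ranges did not overlap, with a log2 fold change of -1.53 (SE 0.17, edgeR adjusted p = 0.0277). Mif is a short gene of 348 exon bases on chromosome 20 (13732198 to 13732859, plus strand).

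Epb41l1 encodes protein 4.1N, which links membrane proteins of neurons to the actin and spectrin skeleton. It had 9.96, 9.66 and 10.1 CPM in EA against 22.6, 17.8 and 20.7 CPM in HT. The EA libraries were close to each other (SD 0.229 CPM), the HT libraries less so (SD 2.39 CPM). The log2 fold change came to -1.05 (SE 0.12, edgeR adjusted p = 0.0277). Rasl10b, a small GTPase of the Ras family, had 3.03, 4.03 and 3.52 CPM in EA and 10.7, 22.4 and 22.4 CPM in HT. HT replicate 1 was its low HT library, and its log2 fold change of -2.39 was the most negative of the 16 (SE 0.29, edgeR adjusted p = 0.0320). Cd99l2, a cell-surface protein of the CD99 family, had 0.942, 1.88 and 1.67 CPM in EA and 6.87, 6.26 and 5.70 CPM in HT (log2 fold change -2.05, SE 0.26, edgeR adjusted p = 0.0334).

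The 7 annotated copies are loci whose description reads as like another gene. In 4 of them the model belongs to the ribosome: LOC100363537 is like ribosomal protein L10a, LOC100365839 like S3a, LOC100360449 like L9, and LOC100360647 like Fau, the precursor of ribosomal protein S30. LOC100365839 had 7.27, 7.28 and 6.70 CPM in EA and 16.1, 14.3 and 16 CPM in HT, with a log2 fold change of -1.13 (SE 0.11, edgeR adjusted p = 0.0277). The remaining copies are LOC100911252, like Ppia, LOC100911625, like the neuronal enolase Eno2, and LOC100911672, like the transcriptional corepressor atrophin-1 (Atn1). LOC100911252 had 3.03, 4.19 and 4.24 CPM in EA and 11, 13.3 and 12.1 CPM in HT (log2 fold change -1.66, SE 0.17, edgeR adjusted p = 0.0277). In all 7, each EA library was below each HT library. The loci AABR07011951.1 and AABR07051069.1 and a transcript without an identifier behaved alike, with log2 fold changes of -1.40, -1.03 and -1.68.

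**Figure D1:**
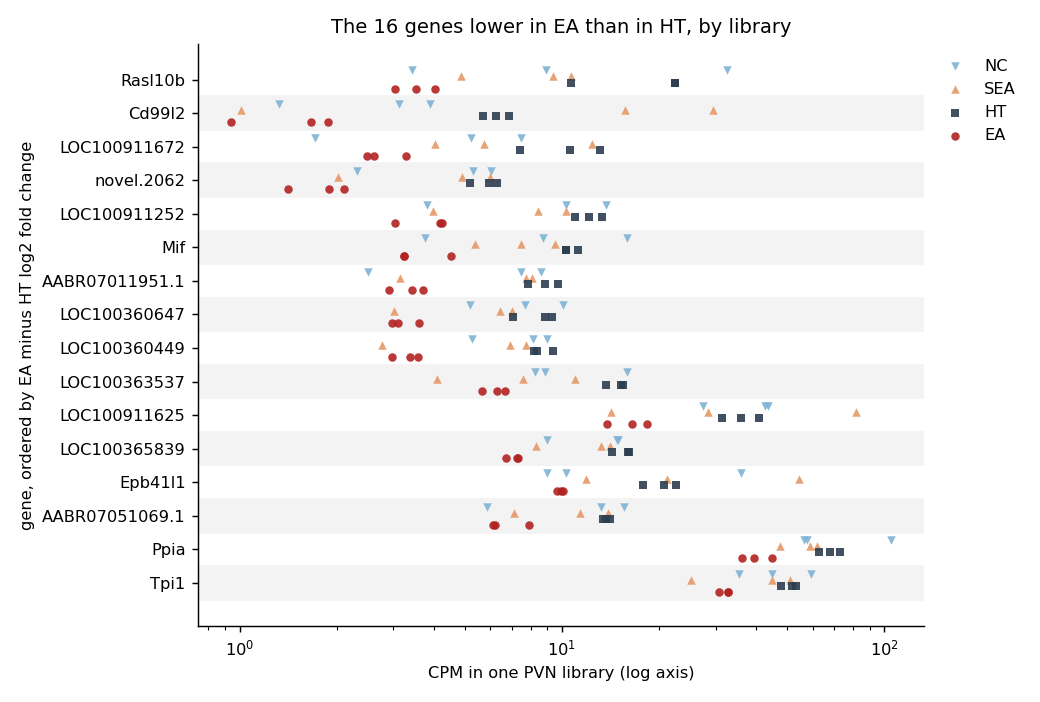
CPM of the 16 genes with an edgeR adjusted p under 0.05 in EA against HT, on a log axis, with 1 point for each PVN library and the groups marked by colour and shape. The EA points lie to the left of the HT points in every row, from Rasl10b at a log2 fold change of -2.39 to Tpi1 at -0.67, whereas SEA and NC points spread over both.

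The handling of multi-mapping reads was not stated, so a copy was read beside the locus under the symbol it is named after. In some pairs both loci had lower values in EA. The Ppia locus and LOC100911252 were both among the 16, and their summed CPM had a log2 fold change of -0.86. Eno2 had 14.3, 22.1 and 20.9 CPM in EA and 33.1, 37.3 and 41.1 CPM in HT. It was lower in each EA library, like its copy, but missed the threshold (log2 fold change -0.96, SE 0.16, edgeR adjusted p = 0.0937, DESeq2 adjusted p = 1.58e-06), and the sum of the pair had a log2 fold change of -1.05. The loci under the symbols Rpl9 and Fau, at 13 to 85 counts per library, had log2 fold changes of -1.06 and -1.36 (edgeR adjusted p = 0.159 and 0.166). Like the Ppia locus, each of them is a single exon block. In these pairs the locus under the symbol may thus itself be a copy.

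Other pairs did not move together. Rps3a, with 341 ± 17.1 CPM in EA and 328 ± 21.5 in HT, had a log2 fold change of 0.05 (SE 0.06), while its copy was at 7.08 ± 0.333 and 15.5 ± 0.980 CPM, so that the sum of the pair had a log2 fold change of 0.02. The locus labelled Atn1 had 12.6 ± 3.55 CPM in EA and 13.0 ± 1.10 in HT, a log2 fold change of -0.05 (SE 0.19), against -1.89 (SE 0.24) for LOC100911672. Rpl10a was listed with 0 counts in each of the 6 libraries, where its copy LOC100363537 had 99 to 248. The enolase and atrophin loci lie near each other in the table. LOC100911672 on chromosome 4 (157267901 to 157274755) is in one stretch with Eno2 (157285179 to 157294047) and Tpi1 (157328379 to 157331905), with a few other loci between them. LOC100911625 on chromosome 9 (20251521 to 20260505) lies next to Atn1 (20264418 to 20278261). The locus labelled Atn1 is thus beside the enolase copy, and the atrophin-like locus is in the stretch of Eno2 itself. Gene and copy are told apart by label only in the atrophin pair, and which locus is the gene was not tested.

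The structure of the 16 loci was looked at after their identities were known. Of the 16, 9 (56.2%) were a single exon block, meaning that exon length made up at least 0.95 of the span, against 10.1% of all genes tested. A count of 3 of the 16 (18.8%) lay on unplaced scaffolds, namely Rasl10b, AABR07051069.1 and the transcript without an identifier, against 0.228% of all genes tested, and the 7 annotated copies (43.8%) compare with 1.75%. Over the 1677 single-block genes tested, 173 (10.3%) were lower at an unadjusted p under 0.05 and 30 (1.79%) were higher. Over the 14964 other genes, 421 (2.81%) were lower and 320 (2.14%) were higher. Of 291 annotated copies tested, 68 were lower and 13 higher at that level, beside 3.57% and 2.1% of all genes. The copies had a median log2 fold change of -0.17 (between -0.20 and -0.15 when 1 library was left out). These numbers, and the shares of counts that follow, include the loci among the 16 and so partly repeat their call. Annotated copies took 0.519 to 0.541% of the counts in EA and 0.542 to 0.556% in HT, ranges that did not overlap (exact permutation p = 0.1, two-sided, the smallest that 3 against 3 libraries allow). Single-block genes took 3.62% ± 0.0489 of the counts in EA and 3.63% ± 0.0145 in HT (exact permutation p = 0.9). The part of this structure in the result was not tested.

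The lower genes with the smallest p-values after the 16 that the naming rule takes were Gm5471, Rpl21, Hnrnpc, Trnp1, Marcksl1, Rpl38, Eno2 and Tagln3, and their edgeR adjusted p-values ran from 0.0510 to 0.0937, while DESeq2 and edgeR without the filter on low counts called each of them. Gm5471, a processed pseudogene, had 5.86, 5.57 and 6.03 CPM in EA and 10.3, 13.8 and 11.8 CPM in HT (log2 fold change -1.04, SE 0.14). Rpl21, a protein of the large ribosomal subunit, had 69.6, 59.0 and 55.3 CPM in EA and 108, 88.8 and 108 CPM in HT (log2 fold change -0.74, SE 0.11), at a locus of a single exon block of 483 bases. Hnrnpc, a nuclear RNA-binding protein, had a log2 fold change of -0.59 (SE 0.09), Trnp1, a nuclear protein of cortical development, -0.49 (SE 0.07), and Marcksl1, which binds actin at the membrane, -0.52 (SE 0.08).

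The levels of the 16 in the sham and control libraries are given beside those in EA and HT. Their summed CPM was 148, 151 and 137 in the EA libraries, 314, 306 and 306 in HT, 266, 338 and 191 in SEA, and 188, 308 and 339 in NC. The EA libraries were thus below each other PVN library, with SEA replicate 3 and NC replicate 1 the nearest. The 16 were chosen for low values in these EA libraries, so this order was largely set by the choice. SEA replicate 3 was at or below the highest EA library for 10 of the 16 genes and NC replicate 1 for 8 of them. The remaining SEA and NC libraries were so for 0 of the 16. Epb41l1 was at 11.9, 21.1 and 54.4 CPM in SEA and Cd99l2 at 15.7, 29.5 and 1.01 CPM, so that both had sham libraries above the HT range and Cd99l2 also had one within the EA range.

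The difference between current and needles alone was tested in EA against SEA, which shares the EA libraries with the main comparison. Of 16606 genes, 0 had an edgeR adjusted p under 0.05, 865 (5.21%) had an unadjusted p under 0.05, and DESeq2 called 23. Leaving out 1 library gave 0 to 13 genes at the adjusted threshold, the 13 without SEA replicate 3. The 16 genes were chosen for low values in these same EA libraries, so their values against SEA are a description only. All 16 had a negative log2 fold change (median -0.96), 14 of them at an unadjusted p under 0.05, and 3.0% of all genes were lower at that level. None of the 16 passed the adjusted threshold in edgeR (smallest adjusted p = 0.882). SEA against HT shares the HT libraries by which the genes were also chosen, and there 13 of the 16 were below 0 (median log2 fold change -0.45), 5 of them at an unadjusted p under 0.05, with 1.97% of all genes lower at that level. For EA against SEA, Ppia had a log2 fold change of -0.48 (SE 0.11) and Mif of -1.02 (SE 0.24).

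**Figure D2:**
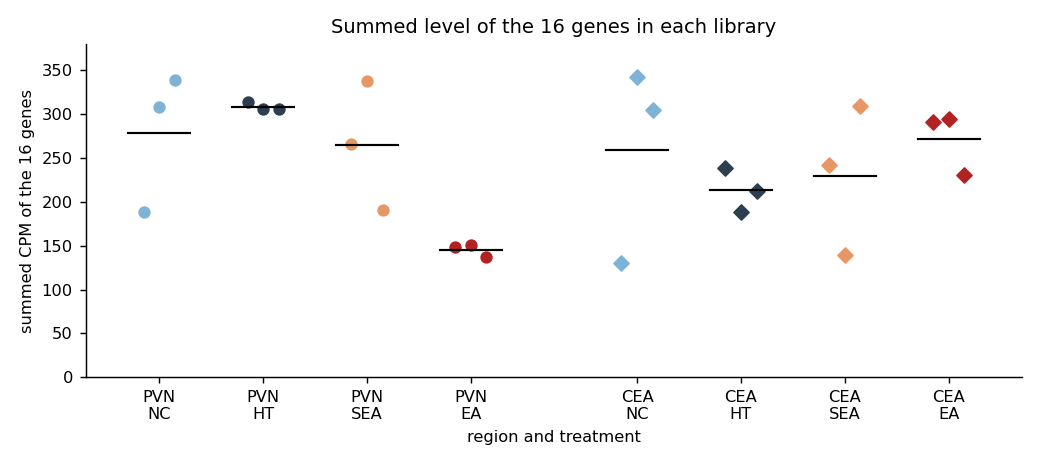
Summed CPM of the 16 genes in each of the 24 libraries, by region and treatment, with 1 point per library and a line at the mean of 3. In the PVN the EA libraries (137 to 151 CPM) sit below all others and the HT libraries (306 to 314 CPM) lie close together, whereas in the CEA the EA libraries (231 to 294 CPM) sit in the range of the other groups. The 16 were chosen by the EA and HT libraries of the PVN, so their order there is a description only.

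In the second region of the series, the central amygdala nucleus (CEA), most of the 16 genes had higher values after EA, without passing the test. Their summed CPM was 291, 294 and 231 in CEA EA, where the numbers of the last 2 libraries are uncertain, and 239, 188 and 212 in CEA HT, and 13 of the 16 had a log2 fold change above 0, with 0 at an unadjusted p under 0.05 (1.82% of all genes were higher and 1.37% lower at that level). The difference of the EA effect between the regions was tested as an interaction. The test contains the PVN difference by which the 16 genes were chosen, so their sign in it was largely set by that choice and is a description only. It was negative for all 16 (median -1.94 on the log2 scale), 13 of them at an unadjusted p under 0.05, and 2.94% of all genes were negative at that level. None of the 16 passed the adjusted threshold in edgeR (smallest adjusted p = 0.292). Over all 17299 genes 0 passed in edgeR, 782 had an unadjusted p under 0.05 (4.52%) and DESeq2 called 50. The adjusted count rose to 19 without CEA HT replicate 1 and to 8 without CEA HT replicate 2. For its co-expression network the paper left out 1 CEA EA library because it differed strongly, and did not name it. Each CEA EA library was used here.

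In the same edgeR test 0 genes passed the adjusted threshold in the other direction and 350 were higher at an unadjusted p under 0.05. Without the filter on low counts edgeR called 4 higher genes, without HT replicate 3 it called 4, without EA replicate 1 or 2 it called 1 each, and DESeq2 called 11. The 8 higher genes of the naming rule were Sst, Serpinf1, Tagln2, Hba-a2, Crot, Pkn3, Syce2 and Krt8, with edgeR adjusted p-values of 0.137 to 0.431. Serpinf1, the secreted factor PEDF, had 3.43, 4.14 and 3.24 CPM in EA and 1.37, 1.75 and 1.94 CPM in HT. Its EA mean was 2.12 times that of HT (log2 fold change 1.09, SE 0.23, edgeR adjusted p = 0.218). Crot, a peroxisomal carnitine acyltransferase, had a log2 fold change of 0.47 (SE 0.12), Krt8, an epithelial keratin, 0.72 (SE 0.19), and Tagln2, an actin-binding protein, 0.37 (SE 0.09). Pkn3, a protein kinase, had a log2 fold change of 0.21 (SE 0.05) and Syce2, a protein of the meiotic synaptonemal complex, 0.60 (SE 0.15).

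Genes of neuroendocrine peptides were on the higher side in EA, without any of them passing the adjusted threshold in that edgeR test. Of 26 listed genes 23 were tested, 17 of these had a log2 fold change above 0, and the median was 0.18 beside 0.000567 over all genes. At an unadjusted p under 0.05, 5 were higher (Sst, Trh, Avp, Crh and Pdyn) and 0 were lower, against 2.1% and 3.57% of all genes. The groups did not overlap for 6 of the 23, all higher in EA, beside 6.01% of all genes.

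The letters at the start of these genes are shown for the peptide with the smallest p, for both of the hypophysiotropic peptides that follow it and have an entry, and, as a gene of the opposite direction, for Mif. Each window runs from 250 bases before to 30 bases after the start of the gene in RefSeq (build GRCr8), and capitals mark TGACGTCA, the cAMP response element, a binding site of CREB that reads the same on both strands. Windows are chr11:90461296-90461575 (plus strand) for Sst, chr4:126301733-126302012 (minus strand) for Trh, chr3:138248493-138248772 (minus strand) for Avp and chr20:12790107-12790386 (plus strand) for Mif.
Sst: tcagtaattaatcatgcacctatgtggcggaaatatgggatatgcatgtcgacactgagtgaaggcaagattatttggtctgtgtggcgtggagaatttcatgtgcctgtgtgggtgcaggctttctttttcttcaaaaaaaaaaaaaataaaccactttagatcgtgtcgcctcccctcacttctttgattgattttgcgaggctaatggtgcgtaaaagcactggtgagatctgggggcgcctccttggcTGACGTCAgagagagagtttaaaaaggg
Trh: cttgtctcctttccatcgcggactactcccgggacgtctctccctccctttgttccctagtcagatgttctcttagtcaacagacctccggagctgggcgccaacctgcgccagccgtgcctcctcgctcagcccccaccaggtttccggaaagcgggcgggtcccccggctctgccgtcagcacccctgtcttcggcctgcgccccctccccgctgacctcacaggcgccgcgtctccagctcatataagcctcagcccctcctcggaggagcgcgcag
Avp: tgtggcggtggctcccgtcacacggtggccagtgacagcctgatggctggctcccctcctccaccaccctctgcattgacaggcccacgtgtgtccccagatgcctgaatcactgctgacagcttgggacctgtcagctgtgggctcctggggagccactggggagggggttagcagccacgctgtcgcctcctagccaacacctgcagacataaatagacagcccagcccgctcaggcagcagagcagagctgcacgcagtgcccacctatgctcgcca
Mif: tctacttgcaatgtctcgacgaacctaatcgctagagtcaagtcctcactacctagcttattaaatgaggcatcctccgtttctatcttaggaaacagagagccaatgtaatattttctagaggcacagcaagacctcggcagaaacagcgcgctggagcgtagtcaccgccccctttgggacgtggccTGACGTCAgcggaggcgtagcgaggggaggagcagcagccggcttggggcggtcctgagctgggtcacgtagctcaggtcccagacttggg
The motif was in 3 of the 20 peptide genes with a window, Sst, Cartpt and Ucn, and in 595 of 33469 windows of this length (1.78%). In Sst it began 2 bases after the annotated start, and in Mif, which was lower in EA, 61 bases before it. Windows were matched by symbol, and of 4 lower genes with one (Mif, Tpi1, Eno2 and Cd99l2) Mif was the 1 with the motif and is shown for that reason. The windows under the symbols Ppia and Epb41l1 lie at another place on their chromosomes than the lower loci and were left out. The windows of Trh and Avp hold no such letters.

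Sst (ENSRNOG00000001837) encodes somatostatin, the inhibitor of growth hormone release. It was measured at 291, 314 and 272 CPM in EA and at 214, 223 and 173 CPM in HT. Each EA library was above each HT library, at a log2 fold change of 0.52 (SE 0.10, edgeR adjusted p = 0.137), with an adjusted p of 3.01e-05 in DESeq2 and a call in edgeR without the filter on low counts. Trh, the releasing hormone of the thyroid axis, had 107, 98.8 and 108 CPM in EA and 89.6, 78.8 and 57.5 CPM in HT (log2 fold change 0.47, SE 0.14, edgeR adjusted p = 0.587, DESeq2 adjusted p = 0.0498). Without HT replicate 3, the lowest HT library, the log2 fold changes were 0.42 for Sst and 0.31 for Trh.

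Crh, the gene of corticotropin-releasing hormone, had 10.7, 9.60 and 9.66 CPM in EA and 7.74, 7.81 and 4.51 CPM in HT. The EA libraries were above the HT libraries, HT replicate 3 was the lowest, and 0.57 was the log2 fold change (SE 0.21, edgeR adjusted p = 0.762), or 0.36 without that library. Avp, which encodes vasopressin, had 357, 307 and 273 CPM in EA and 227, 273 and 182 CPM in HT, where the highest HT library stood next to the lowest EA library (log2 fold change 0.46, SE 0.14, edgeR adjusted p = 0.640), and 0.32 without HT replicate 3. Oxt, the oxytocin gene, had 673, 629 and 504 CPM in EA and 577, 602 and 157 CPM in HT. These ranges overlapped, and the log2 fold change of 0.43 (SE 0.40, edgeR adjusted p = 0.971) was 0.02 without HT replicate 3. Pdyn, the precursor of the dynorphins, had a log2 fold change of 0.18 (SE 0.07) and 112 ± 7.73 CPM in EA against 97.8 ± 5.04 in HT.

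Per kilobase of exon, the EA means were 1130 CPM for Oxt, 543 for Avp, 477 for Sst, 75.1 for Trh and 8.35 for Crh. The HT means stood in the same order at 835, 395, 332, 54.1 and 5.59 CPM per kilobase. Over the list without HT replicate 3 the median log2 fold change was 0.13, with 7 genes higher and 1 lower at an unadjusted p under 0.05, but over all 16860 genes of that fit the numbers also rose, to 544 higher and 817 lower. It was 0.12 without EA replicate 1, with 2 higher and 0 lower, and 0.099 without HT replicate 2, with 4 higher.

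**Figure D3:**
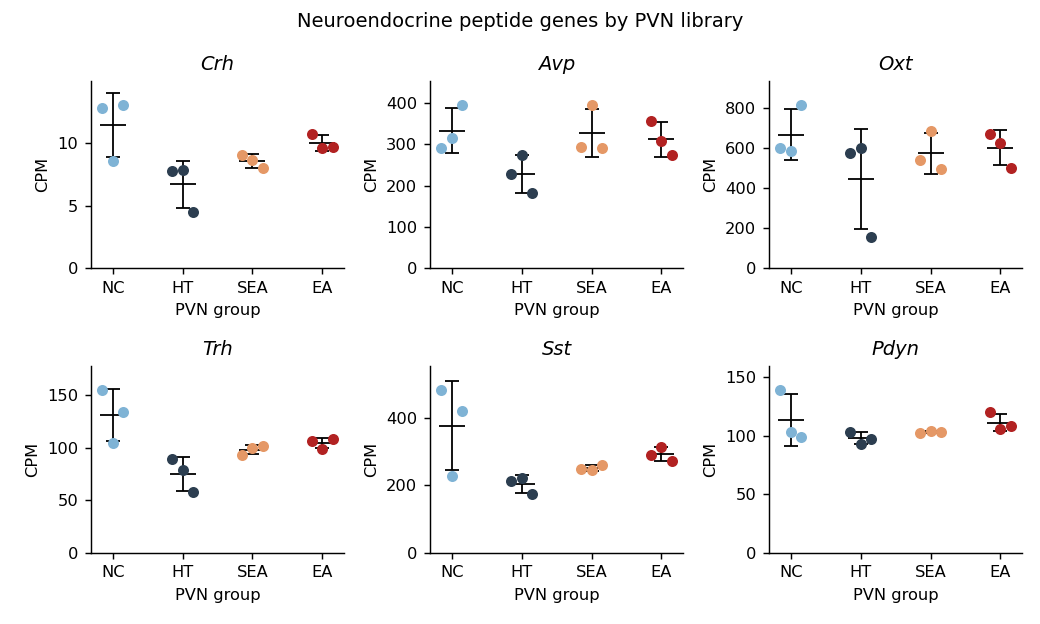
CPM of 6 neuroendocrine peptide genes in the 12 PVN libraries by group, with 1 point per library and the mean ± SD of 3. The third HT point is the lowest of its group for Crh, Avp, Oxt, Trh and Sst, and the Oxt point lies at 157 CPM against 577 and 602 in the other HT libraries.

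The SEA libraries of Sst, Trh and Crh had means between those of HT and EA, while the SEA mean of Avp lay above both. Sst had 248, 244 and 260 CPM in SEA, and its log2 fold changes were 0.22 (SE 0.06) for EA against SEA and 0.30 (SE 0.09) for SEA against HT. Avp had 294, 394 and 292 CPM in SEA, with -0.07 (SE 0.13) and 0.53 (SE 0.16) in the same order. For Crh the log2 fold changes were 0.22 (SE 0.12) and 0.36 (SE 0.21). Of the 23 peptides, 2 were higher and 1 lower at an unadjusted p under 0.05 in EA against SEA (2.2% and 3.0% of all genes), and 4 were higher in SEA against HT (2.41%). In HT against NC, 8 of the 23 were lower (5.35% of all genes were) and the median log2 fold change was -0.41. These comparisons share libraries with EA against HT. In the CEA, Crh had a log2 fold change of 1.48 (SE 0.38, edgeR adjusted p = 0.930) for EA against HT. The interaction for Crh was -0.90 (SE 0.39) on the log2 scale.

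Around the CRH system, 2 of 12 receptor and processing genes reached an unadjusted p under 0.05, and for the lists of this paragraph the shares over all genes were 2.1% higher and 3.57% lower. Over the 35 gene lists, leaving out 1 library moved a count of members at this level by over 1.5 times, to or from 0 included, in 33. Crhr2, the type 2 CRH receptor, had 6.73, 7.39 and 8.26 CPM in EA and 6.74, 5.19 and 3.44 CPM in HT (log2 fold change 0.54, SE 0.23, edgeR adjusted p = 0.872), and 0.32 without HT replicate 3. Pcsk2, a convertase that cuts peptide precursors, had 280, 279 and 273 CPM in EA and 306, 307 and 291 CPM in HT, with a log2 fold change of -0.12 (SE 0.05, edgeR adjusted p = 0.790). At an unadjusted p under 0.05, these were the 1 higher and 1 lower member of 12 tested. Genes that glucocorticoids are known to induce had 0 of 20 members at an unadjusted p under 0.05, with log2 fold changes from -0.72 to 0.85. This rested on HT replicate 3. Without it 7 of them were higher (median log2 fold change 0.68), in a fit with 544 higher of 16860 genes. Sgk1, a glucocorticoid-induced kinase and their most abundant member, ran from 50.3 to 155 CPM in EA and from 25.1 to 222 CPM in HT, so that spread within the groups exceeded the difference. Of 20 immediate early genes, transcription factors and effectors that follow neuronal activity, 1 was higher: Jun had 80.0, 91.4 and 104 CPM in EA and 75.3, 82.0 and 76.3 CPM in HT (log2 fold change 0.24, SE 0.09, edgeR adjusted p = 0.824, and 0.13 on the log2 scale without EA replicate 3). Without EA replicate 1 the list had 4 higher and 1 lower (median log2 fold change 0.21), and without EA replicate 3 it had 0 higher and 2 lower (median -0.16). The 11 transcription factors of PVN neurons held 0 at that level and had a median log2 fold change of -0.0032.

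Genes of the postsynaptic density were on the lower side in EA. Of 22 tested, 17 had a log2 fold change below 0 (median -0.13), 7 were lower at an unadjusted p under 0.05 against 3.57% of all genes, and 0 were higher. None passed the adjusted threshold in edgeR or DESeq2, and in a fit of all 12 PVN libraries 0 of the 22 had an unadjusted p under 0.05. Shank3, a scaffold that ties glutamate receptors to actin, had 207, 269 and 207 CPM in EA and 319, 336 and 251 CPM in HT. EA replicate 2 lay above the lowest HT library, and Shank3 had a log2 fold change of -0.41 (SE 0.13, edgeR adjusted p = 0.640). Shank2 had 16.3, 22.2 and 18.9 CPM in EA and 29.6, 31.4 and 23.2 CPM in HT, without overlap (log2 fold change -0.56, SE 0.15, edgeR adjusted p = 0.461). Camk2a, the kinase of synaptic plasticity, had 132, 153 and 126 CPM in EA and 168, 166 and 154 CPM in HT (log2 fold change -0.26, SE 0.08, edgeR adjusted p = 0.612).

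Further members at that level were Dlgap3, a scaffold that binds PSD-95, with a log2 fold change of -0.35 (SE 0.12), Nsmf, a messenger from synaptic NMDA receptors to the nucleus, with -0.35 (SE 0.12), and Begain, a PSD-95 partner named after its values were seen, with -0.14 (SE 0.06). Nsmf had 277, 320 and 252 CPM in EA and 392, 390 and 298 CPM in HT, where HT replicate 3 again was the lowest of its group. Without that library 8 of the 22 were lower and the median was -0.17, in a fit with 817 lower of 16860 genes. The median was -0.068 without EA replicate 1. Without EA replicate 3 or HT replicate 2 the number was 3, without HT replicate 1 it was 4, and without EA replicate 1 or 2 it was 5 or 9. In EA against SEA, 2 of the 22 were lower (Camk2a -0.21, SE 0.08, and Shank2 -0.44, SE 0.17) and 1 was higher (Homer3, named after its values were seen, 0.35, SE 0.09), where 3.0% of all genes were lower and 2.2% higher. In HT against NC, 8 were higher (5.69% of all genes were), with a median log2 fold change of 0.42.

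**Figure D4:**
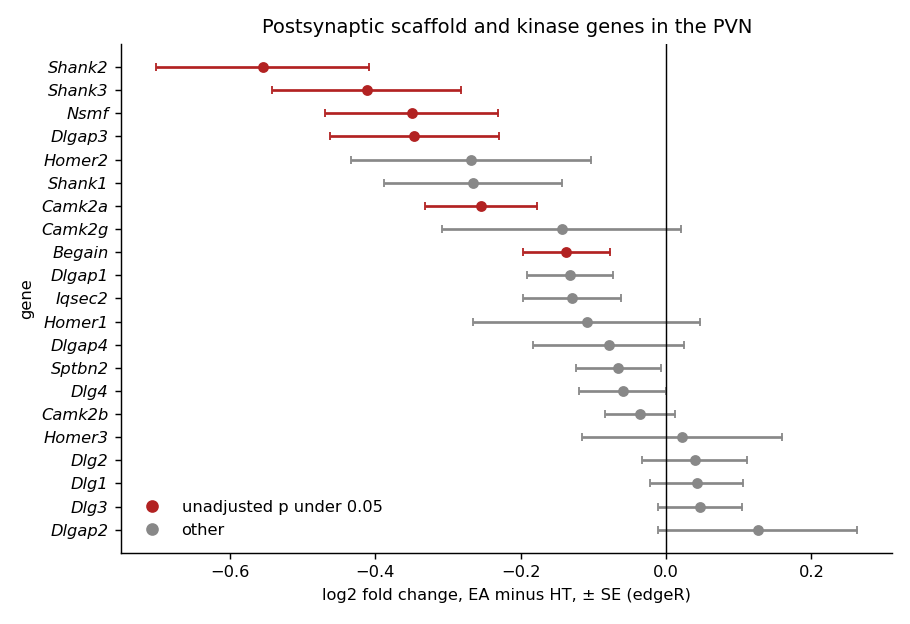
Log2 fold change of EA against HT in the PVN for the postsynaptic scaffold and kinase genes reported here, with bars of 1 SE from edgeR and colour for an unadjusted p under 0.05. The coloured points run from Shank2 at -0.56 to Begain at -0.14, and the 5 genes above 0 are uncoloured.

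Among 22 glutamate receptor genes, 3 were lower at an unadjusted p under 0.05, and for this and the following lists the shares over all genes were 3.57% lower and 2.1% higher. Grm2, a presynaptic metabotropic receptor, had 44.1, 29.0 and 31.5 CPM in EA and 62.5, 61.1 and 55.1 CPM in HT. Its ranges did not overlap and it had a log2 fold change of -0.78 (SE 0.14, edgeR adjusted p = 0.137, DESeq2 adjusted p = 1.92e-05, also called by edgeR without the filter on low counts), with 24.7, 55.6 and 24.8 CPM in SEA. Grik5, a kainate receptor subunit, and Grin1, the obligatory NMDA receptor subunit, had log2 fold changes of -0.20 (SE 0.06) and -0.11 (SE 0.05). GABA transmission had 0 of 21 members at an unadjusted p under 0.05 and a median log2 fold change of -0.03. Of 9 endocannabinoid genes, Mgll, the lipase that breaks down 2-arachidonoylglycerol, was the 1 lower member, with 48.6, 62.0 and 51.4 CPM in EA and 71.2, 76.5 and 53.9 CPM in HT (log2 fold change -0.32, SE 0.14, edgeR adjusted p = 0.862). Of 12 genes of ErbB and Trk signalling, 1 was lower, and of 24 monoamine genes 1 was higher, Ddc, the enzyme that makes dopamine and serotonin (0.26, SE 0.11, and 0.16 without EA replicate 3).

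Of further genes that the study names for the PVN, several did not reach an unadjusted p under 0.05. The mu opioid receptor Oprm1 had 8.48, 16.6 and 14.6 CPM in EA and 20.2, 14.4 and 8.64 CPM in HT, with a log2 fold change of -0.12 (SE 0.32). The dopamine receptor Drd2 had 0.13 (SE 0.12), the angiotensin receptor Agtr2 -0.55 (SE 0.41) and the serotonin receptor Htr1a 0.07 (SE 0.16) on the log2 scale. Without HT replicate 1 Drd2 stood at 0.054 and Agtr2 at -0.14, while Drd2 stood at 0.23 without HT replicate 2 and Agtr2 at -0.85 without HT replicate 3. Actb, the cytoplasmic actin, was higher at that level, with 799, 792 and 789 CPM in EA and 713, 759 and 672 CPM in HT (log2 fold change 0.15, SE 0.05, edgeR adjusted p = 0.783). Tubb2a, a beta tubulin, was the 1 lower member of the 17 actin and tubulin genes (log2 fold change -0.31, SE 0.08, edgeR adjusted p = 0.357, DESeq2 adjusted p = 0.0205), and 5 were lower without EA replicate 2 and 5 without HT replicate 3.

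In energy metabolism and protein synthesis, counts at an unadjusted p under 0.05 stand beside 2.1% higher and 3.57% lower over all genes. Glycolysis had 2 lower of 16 genes, Tpi1 and Eno2, while the other 14 had log2 fold changes between -0.11 and 0.09. Of 85 cytosolic ribosomal protein genes, 9 were higher and 8 lower, with a median of 0.04, and the named lower members Rpl38 (-1.57), Rpl9, Rps18 (-0.86) and Rpl21 stand at loci of a single exon block in the table. The balance rested on single libraries, with 2 higher and 12 lower without EA replicate 1 (median -0.018), 2 and 9 without HT replicate 1, and 17 and 8 without HT replicate 3 (median 0.078). Of 13 genes of the mitochondrial genome 3 were lower, Mt-nd4l (-0.19, SE 0.06), Mt-nd5 and Mt-nd1, and 1 was higher, Mt-co2 (0.16, SE 0.07, and 0.099 without EA replicate 2). Together they took 7.61% ± 0.0688 of the counts in EA and 7.80% ± 0.184 in HT (exact permutation p = 0.2, two-sided). Of 83 nuclear genes of oxidative phosphorylation, 6 were lower and 2 higher, with 2 to 7 lower and 0 to 4 higher when 1 library was left out. Among the lower ones, Ndufa1 had 0.673, 0.497 and 0.558 CPM in EA and 1.44, 27.2 and 1.82 CPM in HT, so that HT replicate 2 sets its log2 fold change of -4.13 (SE 1.18). Hsp90ab1, a constitutive chaperone, was the 1 higher member of 21 heat shock genes (0.12, SE 0.04), and Eef2 (-0.12, SE 0.05) and Eif4a1 (0.17, SE 0.05) were the lower and the higher of 25 translation factors.

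Markers of other cells moved with the groups in places, and the counts of members at an unadjusted p under 0.05 stand beside 2.1% higher and 3.57% lower over all genes. The astrocyte gene Gfap had 373, 368 and 367 CPM in EA and 235, 319 and 304 CPM in HT, without overlap (log2 fold change 0.37, SE 0.10, edgeR adjusted p = 0.526, DESeq2 adjusted p = 0.0311), and 355, 339 and 403 CPM in SEA. It was the 1 of 10 astrocyte markers at an unadjusted p under 0.05, and the summed CPM of the list was 5100 ± 64.5 in EA and 4940 ± 438 in HT (exact permutation p = 0.6). Vim, an intermediate filament of reactive astrocytes, had a log2 fold change of 0.21 (SE 0.08), which was 0.11 without EA replicate 1, and that of Gfap was 0.24 without HT replicate 1. Blood markers, mostly the alpha globin gene Hba-a2 (a symbol that 2 rows of the table carry), summed to 838 to 1390 CPM in EA and 539 to 811 CPM in HT, with 1 of 7 members higher. Of the 7, 6 had a log2 fold change above 0, among them Slc4a1 (0.06) and Alas2 (0.15). The beta globin gene Hbb went the other way, at 2.33 CPM in EA and 5.0 in HT (log2 fold change -1.11). The median log2 fold change of the blood markers, 0.44, was 0.11 without EA replicate 1 and 0.22 without HT replicate 3. Markers of choroid plexus and ependyma summed to 42.5 to 48.7 CPM in EA and 35.9 to 40.7 CPM in HT, and 3 of 7 were higher (Ccdc153, Kl and Folr1), while the choroid plexus factor Otx2 had at most 1 count. Without EA replicate 2 and without HT replicate 2, 0 of these markers were higher. The sums of the blood and of the choroid plexus and ependyma markers each gave an exact permutation p of 0.1, the smallest possible. Thalamus markers summed to 817 to 916 CPM in EA and 854 to 1040 CPM in HT (exact permutation p = 0.2), and 1 of 8, Plekhg1, was lower (log2 fold change -0.38, SE 0.16, and -0.20 without HT replicate 1). The median log2 fold change of the thalamus list was -0.51 without HT replicate 3, with 5 lower, and -0.20, -0.19 and -0.21 without EA replicate 1, HT replicate 1 and HT replicate 2, with 0 lower. Oligodendrocyte, vessel, striatum, pituitary and cortex and hippocampus markers held 0 members at an unadjusted p under 0.05, and of 10 microglia markers 1 was lower, Tmem119 (-0.23, SE 0.09). Of 9 reactive astrocyte and scar genes 2 were higher (Gfap and Vim). Of 15 acute phase and cytokine genes 1 was higher, Ch25h, a sterol hydroxylase induced in inflammation (0.75, SE 0.29). The lists of the circadian clock (1 of 15 lower, Cry2) and of RNA polymerase II and splicing (2 of 18 higher, Hnrnpa2b1 and Srsf1) and of angiotensin and vascular receptors (0 of 10) had few such members, and Pdyn was the 1 of 8 opioid genes. The part of these cells in the results on peptides and synaptic genes was not tested.

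**Figure D5:**
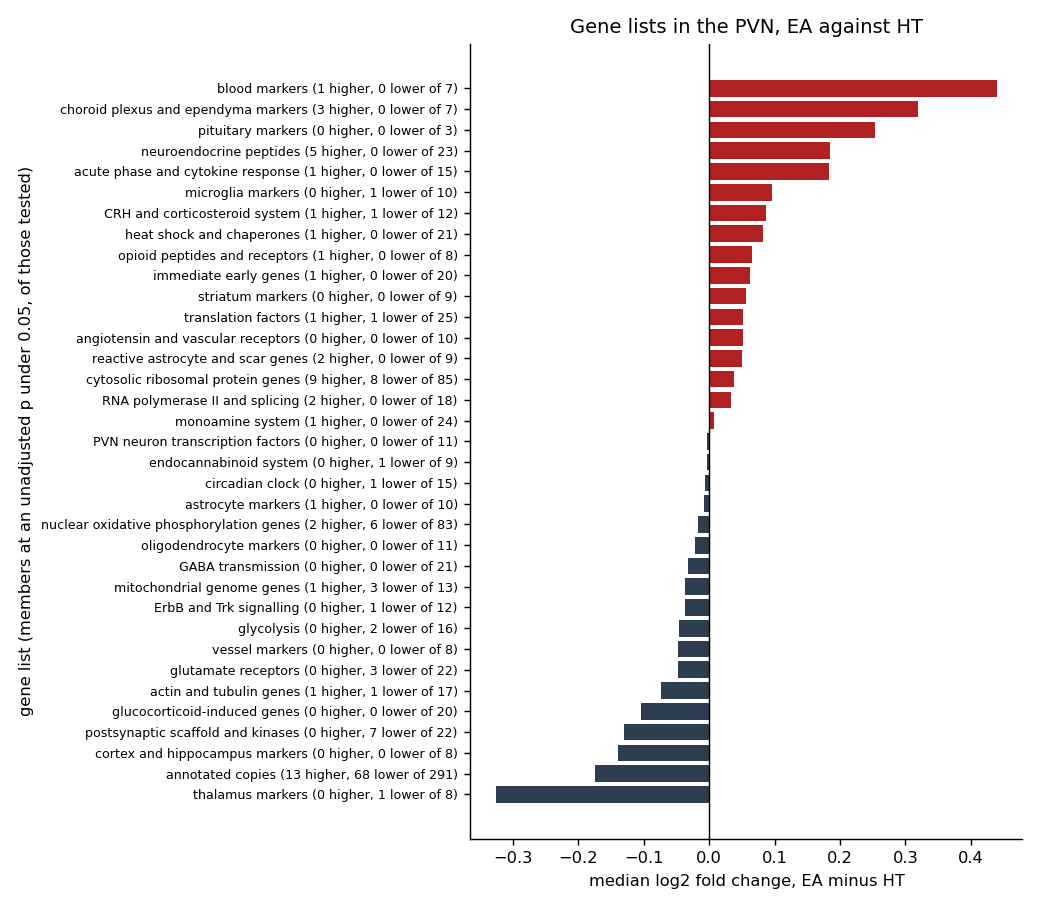
Median log2 fold change of EA against HT in the PVN for each of 35 gene lists, ordered by size, with the number of members at an unadjusted p under 0.05 in each direction beside the number tested. Thalamus markers (-0.33) and annotated copies (-0.17) are at the lower end, neuroendocrine peptides stand at 0.18, and choroid plexus and ependyma markers (0.32) and blood markers (0.44) are at the upper end.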

How the data were processed

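The deposited table holds read counts per gene for 24 libraries, 35032 genes in all, of which 2149 are transcripts without an Ensembl identifier. The authors made these counts with HISAT2 and featureCounts, whose versions and treatment of reads that map to several places were not given in the sources used here. The table names no genome build. The paper gives mRatBN7.2 as the reference it mapped to, and whether the coordinates of the table belong to it was not settled. A second header further down, with other sample names, was dropped. It exchanges CEA EA replicates 2 and 3 relative to the first header, which was used, and has the PVN libraries in the same order. Groups were taken from the sample titles.

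Counts were tested with edgeR 4.0.16 in R 4.3.3 (filterByExpr, TMM, glmQLFit, glmQLFTest, Benjamini-Hochberg over all genes tested, threshold 0.05), with DESeq2 1.42.0 as an alternative. In a test on simulated data the fit recovered most changed genes, but the share of unchanged genes among its calls was above the nominal threshold. Library shares and summed levels were compared by an exact permutation test over samples, for which 3 against 3 libraries allow no p under 0.1.

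Genes were named by rule: those past the adjusted threshold, the 8 with the smallest p in each direction that have a symbol and do not overlap between groups, 5 neuroendocrine peptides, up to 4 members of each gene list, the genes that copies are named after, and genes the study discusses. Members and lists were chosen with earlier results of these data known. Some genes of the rule are not reported here. Total counts ran from 13152772 to 18607032 over the 24 libraries. Same-numbered EA and HT libraries did not deviate together, so the numbers were not used as pairs.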

Additional observations from a re-analysis of the deposited data

How the results depend on the processing

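The 16 lower genes kept their direction under each of the 15 alternatives, but their number did not. At an adjusted p under 0.05 there were 100 genes with DESeq2, 69 with no filter on low counts, 36 with robust dispersion, 0 with all 12 PVN libraries in one fit (618 at an unadjusted p under 0.05, and 15 of the 16 among those), and 0 to 28 when 1 library was left out (715 to 1361 unadjusted). Of the 16, DESeq2, the unfiltered fit and the robust fit each called 16. With library totals in place of TMM, 45.2% of the genes at an unadjusted p under 0.05 were higher, against 37.1%. With the replicate number as a replicate block, 5 genes were called, 3 of them among the 16 (894 unadjusted). Same-numbered libraries had correlations of -0.1207, 0.0765 and 0.0283, so the samples share only a number, and not every library correlated best with its own number. For EA against SEA, DESeq2 called 23 genes, the replicate block 0, and leaving out 1 library gave 0 to 13. For the difference between the regions, DESeq2 called 50, the replicate block 0 (748 unadjusted), and leaving out 1 library gave 0 to 19 (509 to 1998 unadjusted). The cause was not tested. Leaving out 1 library turned the sign of a few genes that missed the threshold: log2 fold changes then ran from -0.25 to 1.91 for Sgk1, -0.31 to 0.086 for Atn1, -0.39 to 0.20 for Oprm1, -0.022 to 0.17 for Htr1a and -0.11 to 0.18 for Homer3. List medians also moved: without 1 library they ran from -0.29 to 0.68 for glucocorticoid-induced genes, 0.11 to 0.65 for blood markers, -0.51 to -0.19 for thalamus markers, -0.16 to 0.21 for immediate early genes, -0.039 to 0.14 for the CRH and corticosteroid system, 0.011 to 0.16 for angiotensin and vascular receptors and -0.044 to 0.096 for astrocyte markers. Without HT replicate 3, 6 glutamate receptor genes were lower and 1 higher and 4 GABA transmission genes were lower at an unadjusted p under 0.05, against 3, 0 and 0 with it. Over all genes the numbers rose as well, from 350 higher and 594 lower of 16641 to 544 and 817 of 16860. Depth of 14796811 to 18226679 counts and 3 libraries a group limit the precision.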
